A study of Homo sapiens with 17 samples.

Results

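The CDK inhibitors and D cyclins that govern the G1 checkpoint of the cell cycle were followed: the 7 CDK inhibitor genes CDKN1A, CDKN1B, CDKN1C, CDKN2A, CDKN2B, CDKN2C and CDKN2D and the 3 D cyclin genes CCND1, CCND2 and CCND3. They were taken by symbol, and are 10 of the 60662 genes that both count tables of the study hold. All 17 RNA libraries, in 6 groups, derive from CHP-134, a line established from a human neuroblastoma and carrying extra copies of MYCN. Cultured cells received the solvent DMSO, or ATRA (all-trans retinoic acid) at 2 µM during 1, 3 or 6 days, with 2 libraries per group. The tumors were grown under the skin of female athymic nude mice, about 12 weeks old, from CHP-134 cells that carry a luciferase label. RA tumors (4 libraries) came from mice that received 13-cis-retinoic acid by oral gavage, 2 doses a day of 25 mg/kg each, and control tumors (5 libraries) from mice that the labels call untreated and the study's text calls vehicle-treated. Athymic mice lack T cells but keep other immune, vascular and connective tissue cells. The study describes most CHP-134 cells as dying over 6 days of ATRA, and the sources do not say whether dying cells were removed before RNA extraction.

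D cyclins bind CDK4 and CDK6, and the pair phosphorylates the retinoblastoma protein RB, which releases E2F factors and lets a cell leave G1 for DNA synthesis. INK4 inhibitors (CDKN2A for p16, CDKN2B for p15, CDKN2C for p18 and CDKN2D for p19) bind CDK4 and CDK6 and keep D cyclins off them. CIP/KIP inhibitors (CDKN1A for p21, CDKN1B for p27 and CDKN1C for p57) bind cyclin-CDK complexes and above all block CDK2. In the developing sympathetic nervous system, from which neuroblastoma arises, precursors leave the cell cycle as they differentiate, with CIP/KIP genes among those that act at this exit.

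Libraries held 31607051 to 39422897 counts in culture and 17266558 to 29078889 in tumors. A gene is called changed where edgeR's quasi-likelihood test gave a false discovery rate (FDR) under 0.05 over all genes tested and the difference was more than 2-fold. Levels are CPM (counts scaled to a common library total) with library sizes scaled by TMM over all 17 libraries, n is 2 per culture group, 4 for RA tumors and 5 for control tumors, and ± gives the SE of a log2 fold change or the SD of a level. The study calls the replicates of its culture time course independent without saying how they were made, and p-values there measure the spread between these libraries. The 9 neuroblastoma markers summed to 2465 to 4257 CPM over the 17 libraries, a sum carried by the amplified MYCN, and DBH was at 0 in 1 DMSO library. Between control tumors and DMSO 2 of the 9 rose (31.5% of all genes) and 4 fell (11.4%). GATA3 was at 31.9 to 50.1 CPM in control tumors, against 316 CPM in both DMSO libraries, and PHOX2A at 2.87 to 6.36 CPM in control tumors, against 32.6 to 33.9 CPM with DMSO. Of the lists of other cells, fibroblast markers summed to 25.7 to 39.4 CPM in RA tumors and 26.6 to 118 CPM in control tumors, leukocyte markers to 1.80 to 3.13 and 2.41 to 4.10 CPM, and endothelial markers to 2.50 to 5.00 and 2.42 to 7.51 CPM, in the same order. In DMSO libraries these sums were 60.64 to 63.35, 0.7095 to 0.9058 and 1.583 to 2.062 CPM. Endothelial markers reached 144.6 to 155.9 CPM at 6 days. Cultured cells thus held RNA of these lists too, and the sums do not measure other cells alone. In bulk RNA, fewer cells that express a gene and less of its RNA per cell cannot be told apart.

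The CIP/KIP genes lie at chr6:36676460-36687337 (CDKN1A, + strand), chr12:12685498-12722369 (CDKN1B, +) and chr11:2883213-2885775 (CDKN1C, -) of hg38. CDKN2A (chr9:21967752-21995301, -) and CDKN2B (chr9:22002903-22009305, -) are neighbours, CDKN2C lies at chr1:50960745-50974634 (+) and CDKN2D at chr19:10566460-10569059 (-). CCND1 lies at chr11:69641156-69654474 (+), CCND2 at chr12:4269771-4305353 (+) and CCND3 at chr6:41934934-42050357 (-). All 10 are annotated as protein coding. In GENCODE v44, exons of CDKN1A, CDKN2A, CDKN2C, CCND1, CCND2 and CCND3 overlap those of a gene on the other strand (DINOL, CDKN2B-AS1, a long noncoding RNA, LTO1, CCND2-AS1 and a long noncoding RNA, in that order), and CCND2 also shares exons with a second entry on its own strand. The strand setting of the counting is not given in the sources used here, so reads in these overlaps cannot be assigned, and CDKN2A counts do not separate its p16 transcript from that of p14ARF, which shares exons with it.

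RefSeq promoter entries (GRCh38.p14) matched 7 of the 10 members, with 12 start sites in all, and CDKN1C, CCND1 and CCND2 were not matched. The 250 bases upstream of the start of the MANE Select transcript are shown for the 4 members in which this window holds no annotated exon: CCND3 and CDKN2C, which fell in late ATRA culture, CDKN2B, which was nearly silent in culture, and CDKN1B, which was steady in culture. Capitals mark matches, on either strand, to the E-box CACGTG, which MYC proteins can bind, the GC box GGGCGG, 2 forms of an E2F site (TTTCGCGC and TTTGGCGC) and the half-site AGGTCA of retinoic acid receptors. GC box matches may overlap each other.
CCND3 chr6:41941809-41942058 (-): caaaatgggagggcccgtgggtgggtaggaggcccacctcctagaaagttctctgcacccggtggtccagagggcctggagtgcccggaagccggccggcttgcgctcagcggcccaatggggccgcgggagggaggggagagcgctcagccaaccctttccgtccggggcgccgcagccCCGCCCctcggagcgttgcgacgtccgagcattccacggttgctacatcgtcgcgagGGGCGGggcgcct
CDKN2C chr1:50969995-50970244 (+): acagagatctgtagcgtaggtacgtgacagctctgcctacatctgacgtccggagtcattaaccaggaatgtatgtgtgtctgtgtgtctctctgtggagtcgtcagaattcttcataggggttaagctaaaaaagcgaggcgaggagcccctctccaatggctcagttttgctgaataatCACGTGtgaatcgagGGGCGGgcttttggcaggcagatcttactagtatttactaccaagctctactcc
CDKN2B chr9:22009306-22009555 (-): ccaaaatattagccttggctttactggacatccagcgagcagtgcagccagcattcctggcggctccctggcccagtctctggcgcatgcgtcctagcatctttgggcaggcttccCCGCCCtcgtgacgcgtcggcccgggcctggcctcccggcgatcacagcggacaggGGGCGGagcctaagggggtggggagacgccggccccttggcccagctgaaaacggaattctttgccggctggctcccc
CDKN1B chr12:12717118-12717367 (+): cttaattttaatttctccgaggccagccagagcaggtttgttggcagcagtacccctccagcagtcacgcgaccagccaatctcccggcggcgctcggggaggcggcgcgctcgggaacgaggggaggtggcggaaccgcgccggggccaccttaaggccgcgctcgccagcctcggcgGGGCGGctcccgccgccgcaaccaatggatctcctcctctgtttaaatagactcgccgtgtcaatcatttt
The CDKN2C window held 1 E-box, 69 bases before the start, and another CDKN2C start site had a second, 220 bases before it. Over the 35116 promoters of the table, 6.34% held the E-box, 42.6% the GC box, 12.1% the half-site, and 0.439% and 0.55% the E2F forms, in the order given. None of the 12 windows of members held the half-site or either E2F form.

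CDKN1C, the gene of p57, showed the widest range in fold of the CIP/KIP genes in culture. DMSO libraries held 2.76 and 3.50 CPM, those of 1 day 2.62 and 2.68 CPM, those of 3 days 6.76 and 6.05 CPM and those of 6 days 58.5 and 62.5 CPM. Both 6 day libraries stood far above every other library of the series, and 1 day libraries were not above DMSO (log2 fold change -0.21 ± 0.14, FDR 0.302). At 3 days it was the one member called, with 2.11-fold more than DMSO (FDR 7.22e-10). Leaving out DMSO library 1 (0.90) or 3 day library 1 (0.99) took the log2 difference under the 2-fold limit. From 3 to 6 days the level grew a further 9.02-fold (log2 3.17 ± 0.08, FDR 2.9e-29), and at 6 days the log2 fold change over DMSO was 4.25 ± 0.09 (FDR 3.36e-32).

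CDKN1A, whose protein p21 blocks CDK2, differed from DMSO by less than 2-fold at each time. Its level was 94.3 and 92.6 CPM with DMSO, 88.7 and 86.5 CPM at 1 day, 125 and 129 CPM at 3 days and 176 and 179 CPM at 6 days. Thus every 3 and 6 day library exceeded every earlier one, while the differences from DMSO (-0.08 ± 0.03, 0.47 ± 0.03 and 0.89 ± 0.03 in log2, at 1, 3 and 6 days) stayed within the 2-fold limit. The FDR was 0.0575, 3.62e-16 and 8.12e-26 in this order.

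CDKN1B, whose protein is controlled largely by its degradation, held between 99.9 and 115 CPM in all 8 culture libraries. DMSO libraries had 113 and 111 CPM, those of 1 day 115.0 and 109.6 CPM, those of 3 days 112.3 and 112.6 CPM and those of 6 days 99.9 and 103.6 CPM. The levels of DMSO, 1 day and 3 days overlapped, and the 6 day libraries lay below them. The 6 day difference was -0.17 ± 0.03 in log2 against DMSO (FDR 6.67e-06), far within the 2-fold limit.

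The INK4 genes went different ways. CDKN2D, which encodes p19, had the largest difference of any member at 1 day. Its level was 5.59 and 5.06 CPM with DMSO, 9.26 and 9.38 CPM at 1 day, 8.15 and 9.19 CPM at 3 days and 14.7 and 14.2 CPM at 6 days. All ATRA libraries lay above DMSO, with a first step at 1 day (0.82 ± 0.10, FDR 2.95e-08), no detected difference between 3 days and 1 day (-0.09 ± 0.09, FDR 0.524), and a second step from 3 to 6 days (0.67 ± 0.09, FDR 4.1e-08). Only the sum of the steps passed the 2-fold limit, at 6 days (1.40 ± 0.10, FDR 1.04e-15).

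CDKN2C, which encodes p18, had 14.7 and 16.2 CPM with DMSO, 15.4 and 15.4 CPM at 1 day, 15.5 and 16.5 CPM at 3 days and 7.67 and 7.09 CPM at 6 days. Levels up to 3 days overlapped (0.01 ± 0.07 and 0.08 ± 0.08 against DMSO, FDR 0.939 and 0.394 at 1 and 3 days), and the drop fell wholly between 3 and 6 days, when the level fell 2.27-fold (log2 -1.18 ± 0.09, FDR 7.57e-15).

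CDKN2A was scarce in culture, and its level at 6 days was the lowest. It had 3.03 and 3.31 CPM with DMSO, 2.31 and 2.62 CPM at 1 day, 1.62 and 2.20 CPM at 3 days and 1.09 and 1.28 CPM at 6 days, from counts of 33 to 111 per library. No neighbouring pair of times overlapped, yet the first steps did not pass the FDR (-0.34 ± 0.18 at 1 day against DMSO, FDR 0.18, and -0.34 ± 0.20 at 3 days against 1 day, FDR 0.189). The last step did, within the 2-fold limit (-0.76 ± 0.23 at 6 days against 3 days, FDR 0.00349). The 6 day value was 2.72-fold below DMSO (FDR 1.25e-07).

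CDKN2B, which encodes p15, was nearly silent in culture. Its 8 culture libraries held 10 counts in all, namely 0 and 1 in the DMSO pair, 2 and 1 after 1 day, 0 and 0 after 3 days and 5 and 1 after 6 days, and it was not tested there. The ratio of 6 days to DMSO, 6.7 from 6 counts against 1, had a 95% exact interval of 0.813 to 308, which covers counting error only.

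Among the D cyclins, CCND3 fell stepwise and CCND1 stayed high. CCND3 had 52.6 and 53.4 CPM with DMSO, 47.9 and 45.9 CPM at 1 day, 38.7 and 39.2 CPM at 3 days and 16.8 and 17.2 CPM at 6 days. Each time lay below the one before with no overlap, at log2 differences from DMSO of -0.16 ± 0.04, -0.41 ± 0.05 and -1.67 ± 0.05 (FDR 0.00589, 1.86e-09 and 3.2e-26), and most of the fall, 2.39-fold, came after 3 days (FDR 1.37e-21). At 6 days CCND3 was 3.18-fold below DMSO.

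CCND1, the most abundant D cyclin gene and one that neuroblastoma often expresses strongly, had 610.5 and 615 CPM with DMSO, 710.2 and 708 CPM at 1 day, 731 and 742 CPM at 3 days and 544 and 571 CPM at 6 days. Levels were above DMSO at 1 and 3 days (0.23 ± 0.02 and 0.30 ± 0.02, FDR 6.01e-11 and 1.74e-14) and below it at 6 days (-0.17 ± 0.02, FDR 7.07e-09), within the 2-fold limit each time. CCND2 had 0 counts in all 8 culture libraries, where a floor of 3 counts over them is 0.0114 CPM, and a second entry that overlaps it, AC008012.1, was also at 0.

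**Figure D1:**
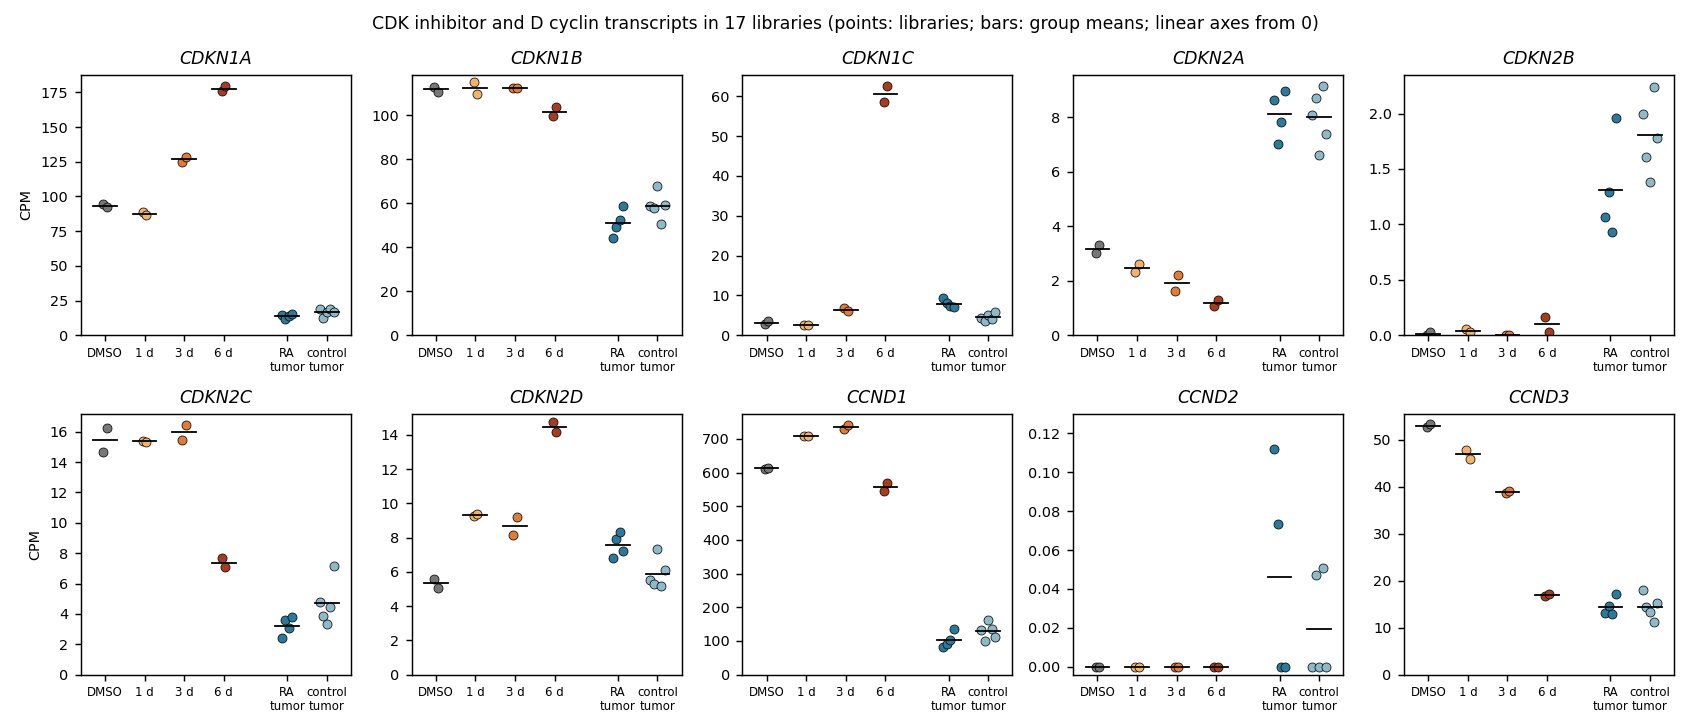
Level of each member (CPM, linear axes that start at 0, apart from a small margin below 0 for CCND2) in each of the 17 libraries, with DMSO and 1, 3 and 6 days of ATRA on the left of each panel and RA tumors and control tumors on the right (points are libraries and bars group means). CDKN1C stands out at 58.5 and 62.5 CPM at 6 days, CCND3 descends with time, and CDKN2A and CDKN2B are higher in tumors than in any culture library.

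Counted over the members, 0 of 8 tested were called at 1 day, against 2.74% of all 20237 genes tested. At FDR under 0.05 alone there were 3 (26.4% of all genes). At an unadjusted p under 0.05 there were 4, a count whose share of all genes is not given here. DESeq2 also called no member at 1 day. At 3 days 1 of 8 was called (7.87% of all genes), and at 6 days 5 of 8 (31.2% of all genes), with 2 up (18.8%) and 3 down (12.3%). By FDR alone these counts were 6 at 3 days (45% of all genes) and 8 at 6 days (75.1%). Between 3 days and 1 day 1 member was called (4.09% of all genes) and 4 passed the FDR alone (34.5%). Between 6 and 3 days 3 were called (21.1%), 1 up (12.7%) and 2 down (8.41%), and 8 passed the FDR alone (68.1%). Groups of 2 libraries did not overlap in 6, 6 and 8 of the 8 members at 1, 3 and 6 days against DMSO, where 60.5%, 70.7% and 86.8% of all genes did not. They did not overlap in 7 members for 3 days against 1 day and in 8 for 6 days against 3 days, where 64.7% and 83.1% of all genes did not. The median log2 difference of the 8 members from DMSO was -0.03, 0.19 and -0.17 at 1, 3 and 6 days, beside 0.0026, 0.0086 and 0.0415 over all genes. The 3 comparisons with DMSO share the DMSO libraries.

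**Figure D2:**
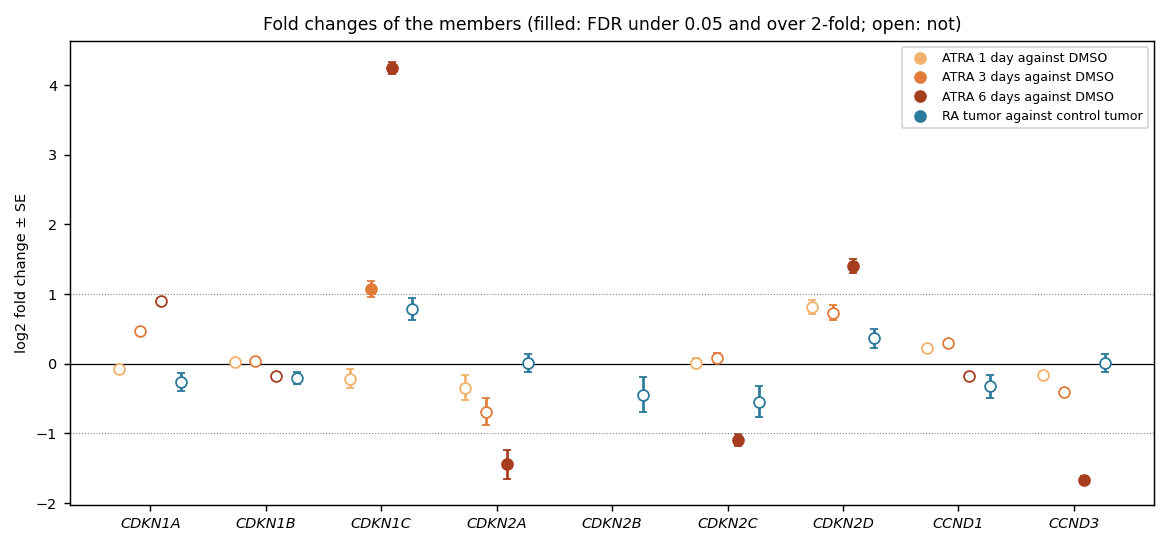
Log2 fold change (± SE) of the 9 members tested in some comparison, for ATRA at 1, 3 and 6 days against DMSO and for RA tumors against control tumors, with filled points for those called and open points for the others. The 6 day points spread from 4.25 for CDKN1C to -1.67 for CCND3, while the tumor points stay between 0.79 and -0.54, CDKN2B being tested in tumors only.

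Levels of different genes were compared per kilobase of the MANE Select transcript. CDKN2D made up 16.65 ± 1.91% of the INK4 sum in DMSO cells, 26.65 ± 0.0707% after 1 day, 25.2 ± 0.424% after 3 days and 54 ± 0.141% after 6 days. CDKN2C made up 69 ± 1.7% in DMSO cells, 63.05 ± 0.778% after 1 day, 66.7 ± 1.56% after 3 days and 39.4 ± 0.99% after 6 days, so among the culture groups CDKN2D stood above it at 6 days alone. The INK4 sum itself was 22.5 ± 1.05 CPM per kb with DMSO, 24.5 ± 0.255 at 1 day, 24.1 ± 1.64 at 3 days and 18.8 ± 0.587 at 6 days. CDKN1C took 1.91 ± 0.339% of the CIP/KIP sum with DMSO, 1.67 ± 0.0707% at 1 day, 3.29 ± 0.290% at 3 days and 21.3 ± 0.424% at 6 days. CCND3 took 15.35 ± 0.0707% of the D cyclin sum with DMSO, 12.15 ± 0.354% at 1 day, 9.96 ± 0.0141% at 3 days and 6.01 ± 0.0849% at 6 days, and CCND1 the rest. The ratio of the D cyclin sum to the CIP/KIP sum was 1.85 ± 0.0283 with DMSO, 2.13 ± 0.0424 at 1 day, 1.75 at 3 days and 0.873 ± 0.00707 at 6 days. These shares are descriptions of RNA and were not tested.

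**Figure D3:**
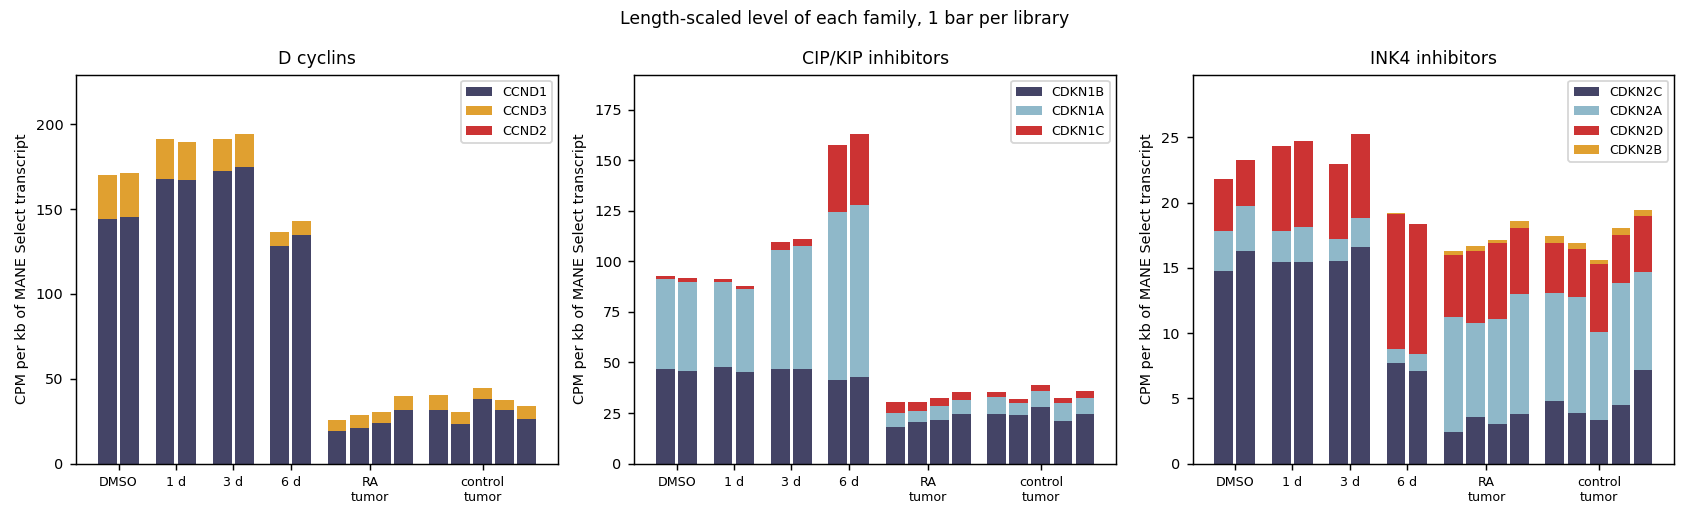
Summed level of the D cyclins, the CIP/KIP inhibitors and the INK4 inhibitors (CPM per kb of MANE Select transcript, from 0), with 1 bar per library and the genes stacked in colours. In culture CDKN1C adds to the CIP/KIP bars at 6 days and CDKN2D replaces much of CDKN2C, and in tumors the D cyclin bars are low, at 31.3 ± 6.23 in RA tumors and 37.3 ± 5.56 in control tumors.

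In tumors the members differed little between treatments. CDKN1C had 9.40, 8.13, 7.25 and 6.99 CPM in RA tumors, against 4.21, 3.60, 5.13, 4.12 and 5.81 CPM in control tumors. Every RA tumor lay above every control tumor. The groups did not overlap, in either direction, in this 1 of the 9 members tested and in 5.81% of all 21098 genes. The difference was 1.73-fold (log2 0.79 ± 0.16, FDR 0.0205), short of the 2-fold limit. The FDR was above 0.05 where RA tumor 1, 2 or 3 was left out (0.0846, 0.087 and 0.0597), with log2 differences of 0.69 to 0.89 over all 9 such fits. Summed markers of dividing cells were 938 to 1330 CPM in RA tumors and 1193 to 1357 CPM in control tumors. The lowest sum was in RA tumor 1, which had the most CDKN1C. The highest sum was in control tumor 5, which had the most CDKN1C among control tumors. Their part in the result was not tested.

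No member was called between RA and control tumors, where 0.284% of all genes were, and CDKN1C was the one member with an FDR under 0.05 (1.62% of all genes). DESeq2 called none either. At an unadjusted p under 0.05 there were 4 members, a count whose share of all genes is not given here. CDKN2D had 6.82, 7.91, 8.31 and 7.21 CPM in RA tumors, against 5.51, 5.26, 7.33, 5.14 and 6.13 CPM in control tumors, and the groups overlapped (0.36 ± 0.13, FDR 0.199). CDKN2C had 2.41, 3.57, 3.05 and 3.82 CPM in RA tumors, against 4.75, 3.84, 3.33, 4.48 and 7.12 CPM in control tumors (-0.54 ± 0.22, FDR 0.236). These groups overlapped as well, and control tumor 5 had the highest value.

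CDKN1A (-0.27 ± 0.13, FDR 0.343), CDKN1B (-0.21 ± 0.09, FDR 0.279), CDKN2B (-0.44 ± 0.25, FDR 0.424) and CCND1 (-0.33 ± 0.17, FDR 0.4) had lower fitted means in RA tumors, within the spread. CDKN2A (0.01 ± 0.13, FDR 0.974) and CCND3 (0.00 ± 0.13, FDR 0.993) had nearly equal means. CCND1 had 81.9, 90.3, 102.7 and 134.1 CPM in RA tumors, against 133.6, 98.4, 161, 135 and 112 CPM in control tumors, with RA tumors 3 and 4 inside the control range. CDKN1A had 14.8, 11.6, 13.9 and 15.5 CPM in RA tumors, against 18.6, 12.3, 16.9, 19.1 and 16.6 CPM in control tumors. CDKN1B had 44.03, 49.1, 52.4 and 58.7 CPM in RA tumors, against 58.7, 57.8, 67.7, 50.6 and 59.4 CPM in control tumors. In each of these genes the groups overlapped. CDKN2A had 8.62, 7.03, 7.82 and 8.98 CPM in RA tumors, against 8.10, 8.72, 6.62, 9.16 and 7.38 CPM in control tumors. CCND3 had 13.1, 14.6, 12.8 and 17.2 CPM in RA tumors, against 18.04, 14.3, 13.2, 11.3 and 15.1 CPM in control tumors. CDKN1C took 14.05 ± 2.78% of the CIP/KIP sum per kb in RA tumors and 7.37 ± 1.08% in control tumors. CCND2 had 2, 2, 0 and 0 counts in RA tumors and 0, 1, 0, 1.11 and 0 in control tumors, and was not tested.

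Control tumors differed from DMSO cells in most members. Tissue, host and library kit differ together here, so their effects cannot be told apart, and the median log2 difference of all genes was 0.25. Of 9 members tested, 6 were called (42.9% of all 25787 genes), 2 up (31.5%) and 4 down (11.4%). The groups did not overlap in 8 of the 9 (71.9% of all genes). CCND1 had 133.6, 98.4, 161, 135 and 112 CPM in control tumors, against 610.5 and 615 CPM with DMSO, a 4.79-fold lower level (FDR 4.22e-08). CDKN1A had 18.6, 12.3, 16.9, 19.1 and 16.6 CPM in control tumors, against 94.3 and 92.6 CPM with DMSO (5.603-fold lower, FDR 4.29e-13). These are the members with the deepest drops in the tumors, and no tumor came near a culture library. CCND3 was 3.68-fold (FDR 2.22e-11) and CDKN2C 3.29-fold (FDR 5.86e-08) lower in control tumors than with DMSO.

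CDKN2A, in contrast, had 8.10, 8.72, 6.62, 9.16 and 7.38 CPM in control tumors, against 3.03 and 3.31 CPM with DMSO (2.52-fold higher, FDR 7.7e-07). It made up 48.3 ± 4.63% of the INK4 sum per kb in RA tumors and 46.9 ± 5.89% in control tumors, against 14.35 ± 0.212% with DMSO. CDKN2B, its neighbour, had 19, 35, 21 and 60 counts in RA tumors and 37, 34, 27, 44 and 34 in control tumors, against 0 and 1 with DMSO. Over the 9 tumors it had 311 counts against 10 in the 8 culture libraries, a ratio of 41.8 after scaling (95% exact interval 22.4 to 88.1, counting error only). Both libraries of DMSO and all of ATRA thus lay below every tumor for this pair of genes. Some markers of other cells also stood higher in tumors at levels like that of CDKN2B, while others stood lower. Of the Schwann markers, SOX10 had 1.36 to 1.89 CPM in RA tumors and 0.89 to 2.21 CPM in control tumors, against 0 with DMSO. ERBB3 had 1.55 to 2.74 CPM in RA tumors and 1.74 to 2.14 CPM in control tumors, against 0 to 0.0312 CPM with DMSO. Between control tumors and DMSO, 2 of 3 tested Schwann markers rose and 1 fell (5 in the list, summed to 4.69 to 6.21 CPM in control tumors, against 7.75 to 8.24 CPM with DMSO), and 3 of 4 tested leukocyte markers rose (6 in the list, 2.41 to 4.10 CPM, against 0.71 to 0.906 CPM with DMSO). Of 7 fibroblast markers, 1 rose and 3 fell (median log2 difference -0.895). Of 3 tested endothelial markers (5 in the list), 1 rose and 0 fell. Over all genes 31.5% rose and 11.4% fell. Their part in the levels of CDKN2A and CDKN2B was not tested. CDKN1B was lower in control tumors but within 2-fold (-0.93 ± 0.09, FDR 1.72e-08), and passed that limit without the filter on low counts (-1.02) and with the replicate block (-1.04), which raised the members called to 7. CDKN1C (0.55 ± 0.17, FDR 0.00638) and CDKN2D (0.14 ± 0.14, FDR 0.374) were closer to DMSO.

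Whether the retinoid acted on the members alike in tumors and in culture was tested directly, as the log2 difference of RA from control tumors less that of 6 day ATRA cells from DMSO cells. Compound, dose, time and kit differ between the settings and cannot be told apart. Of 9 members, 5 were called (20.9% of all genes), 2 with a higher value in tumors (7.78%) and 3 with a lower one (13.1%), and the median over all genes was -0.12. CDKN1C (-3.49 ± 0.22, FDR 1.62e-10), CDKN1A (-1.19 ± 0.17, FDR 9.97e-06) and CDKN2D (-1.07 ± 0.19, FDR 0.000121) had the smaller or opposite difference in tumors. Of these, CDKN1C alone passed the FDR between RA and control tumors. CCND3 (1.65 ± 0.18, FDR 3.14e-07) and CDKN2A (1.43 ± 0.26, FDR 0.000118) fell in culture, while their RA and control tumors had nearly equal means. For CDKN2C (0.54 ± 0.28, FDR 0.137), CDKN1B (-0.07 ± 0.14, FDR 0.794) and CCND1 (-0.18 ± 0.26, FDR 0.657) no difference was detected. CDKN2D came just under the 2-fold limit without control tumor 3 (-0.98) and without the filter on low counts (-0.97), which left 4 members called. CDKN2B, with 1 count in the DMSO libraries, was not called (-2.85 ± 1.16, FDR 0.0573), but was called without DMSO library 2 (FDR 0.0446), 6 day library 2 (FDR 0.0213) or RA tumor 4 (FDR 0.0288).

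Ordered by level, CDKN1A, CCND1 and CDKN1B were higher in every culture group than in every tumor group, with RA and control tumors overlapping at the bottom. Tissue, host and library kit differ between culture and tumors, so orders across them are descriptions only. CCND3 descended in order from DMSO to 6 days, and its 6 day libraries overlapped with tumors, at 12.8 to 17.2 CPM in RA tumors and 11.3 to 18.04 CPM in control tumors. CDKN1C ran from 6 days through RA tumors, 3 days, control tumors and DMSO to 1 day, with no overlap between neighbours in that order. Of all genes, 71.9% did not overlap between control tumors and DMSO and 60.5% between 1 day and DMSO. Shares for the other neighbours in this order are not given here. CDKN2C at 6 days overlapped with control tumors, and CDKN2D in DMSO libraries overlapped with control tumors.

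The partners of the D cyclins were given by lists chosen with earlier results known. Of 7 CDK and CDK-activating kinase genes, 3 fell at 6 days against DMSO (12.3% of all genes) and 0 rose (18.8%), with a median of -0.64. Those that fell were CDK1 by 2.40, CDK2 by 2.14 and CDK4 by 1.52 in log2. CDK4 had 68.6 and 70.7 CPM at 6 days, against 191 and 199 CPM with DMSO. CDK6, the more abundant partner by count, had 564 and 581 CPM at 6 days, against 869.8 and 875.5 CPM with DMSO (-0.64 ± 0.02, FDR 1.3e-25), a change within 2-fold. Its lowest culture level was at 3 days, with 482.5 and 486.2 CPM (-0.82 ± 0.02 against DMSO, FDR 6.01e-28). In RA tumors CDK4 was at -0.20 ± 0.08 (FDR 0.23) and CDK6 at 0.0019 ± 0.08 (FDR 0.994).

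Downstream, 8 of 9 genes of E, A and B cyclins and CDC25 phosphatases fell at 6 days (12.3% of all genes) and 1 rose (18.8%), with a median of -2.26. Lowest were CCNE2 at -3.21 ± 0.08 (FDR 3.5e-29), CDC25A at -2.76 ± 0.05 (FDR 1.29e-28), CCNB1 at -2.73 ± 0.04 (FDR 2.17e-37) and CCNA2 at -2.66 ± 0.04 (FDR 6.03e-37). CCNE1, like CCNE2 a partner of CDK2, fell by 1.65 (FDR 2.93e-21), and the gene that rose, CCNA1 (1.74 ± 0.15, FDR 3.17e-13), encodes an A cyclin known from germ cells. Of 13 RB and E2F genes 6 fell (12.3% of all genes) and 1, TFDP2, rose (18.8%), with a median of -0.99. At the bottom were E2F7 (-3.99 ± 0.06, FDR 2.58e-35), E2F8 (-3.35 ± 0.13, FDR 1.19e-23) and E2F2 (-2.69 ± 0.03, FDR 2.84e-39), and E2F1 was at -2.10 ± 0.03 (FDR 2.81e-37). RB1 itself was at -0.80 ± 0.04 (FDR 2.4e-19), within 2-fold. Among these 29 genes none was called at 1 or 3 days against DMSO (2.74% and 7.87% of all genes), nor in RA tumors (0.284%). Within the 2-fold limit there were differences at 3 days. The medians then were -0.13 for the kinase list, -0.33 for the cyclin and CDC25 list and -0.26 for the RB and E2F list. E2F7 was at -0.75 ± 0.04 (FDR 1.04e-16), while CCNA1 was at 0.93 ± 0.16 (FDR 5.79e-06). Between control tumors and DMSO, 2 of the 7 kinase genes, 6 of the 9 cyclin and CDC25 genes and 5 of the 13 RB and E2F genes fell (11.4% of all genes). None of them rose (31.5% of all genes).

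MKI67, a marker of cycling cells, had 88.4 and 89.4 CPM at 6 days, against 477 and 490 CPM with DMSO, and 228 to 311 CPM in RA tumors, against 316 to 328 CPM in control tumors. Summed markers of dividing cells came to 2241 and 2222 CPM in the DMSO pair, 2130 and 2084 CPM after 1 day, 1761 and 1765 CPM after 3 days and 410.2 and 407.5 CPM after 6 days. At 6 days these markers lay below DMSO, as did CCND3, CDKN2A, CDKN2C, CDK2 and CDK4, while CDKN1C, CDKN2D and, within 2-fold, CDKN1A lay above it. Earlier times were less alike. The marker sum was lower at 3 days, when CDKN2C was not, and CDKN2D was higher at 1 day, when CDKN1C was not. The part of dividing cells in these results was not tested.

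Of the 14 tested genes (of 15) that set the stability of the proteins, 4 fell at 6 days (12.3% of all genes) and 0 rose (18.8%), with a median of -0.16. Those that fell were DTL (-2.91 ± 0.04, FDR 2.37e-38), which targets p21 in S phase, CKS1B (-2.37 ± 0.05, FDR 3.03e-32) and SKP2 (-1.41 ± 0.03, FDR 8.93e-34), which together mark p27 for degradation, and CKS2 (-1.69 ± 0.06, FDR 4.9e-24). SKP2 had 110.8 CPM in both libraries of 6 days, against 285 and 290 CPM with DMSO, while RNA of its substrate gene CDKN1B stayed near its DMSO level. AMBRA1, which directs the degradation of D cyclins, was at 0.08 ± 0.04 (FDR 0.049). In RA tumors 0 of 15 were called (0.284% of all genes).

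Of 28 tested transcriptional regulators (of 30), 5 rose (18.8% of all genes) and 10 fell (12.3%) at 6 days, with a median of -0.71. RARB, a direct target of retinoic acid receptors, rose by 4.97 ± 0.12 (FDR 4.3e-30) and was already 3.23 ± 0.14 above DMSO at 1 day (FDR 2.14e-20). Also up at 6 days were RARA (2.05 ± 0.03, FDR 2.72e-38), SMAD1 (1.92 ± 0.04, FDR 1.59e-32), FOXO3, a factor that can raise CDKN1B (1.43 ± 0.03, FDR 3.36e-30), and CBX7, a Polycomb repressor of the CDKN2A locus (1.183 ± 0.16, FDR 3.73e-08). ID1 (-5.51 ± 0.07, FDR 8.68e-39), SNAI2 (-3.44 ± 0.16, FDR 8.86e-21) and ID2 (-3.09 ± 0.06, FDR 5.05e-33) fell most, ID1 and ID2 being inhibitors of differentiation factors. MYCN, the amplified oncogene, had 970.4 and 992 CPM at 6 days, against 1951 and 1978 CPM with DMSO (-1.03 ± 0.02, FDR 1.96e-33). In RA tumors RARB was called (1.19 ± 0.15, FDR 0.00194), 1 of 28 (0.284% of all genes), and MYCN was at 0.06 ± 0.13 (FDR 0.876).

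**Figure D4:**
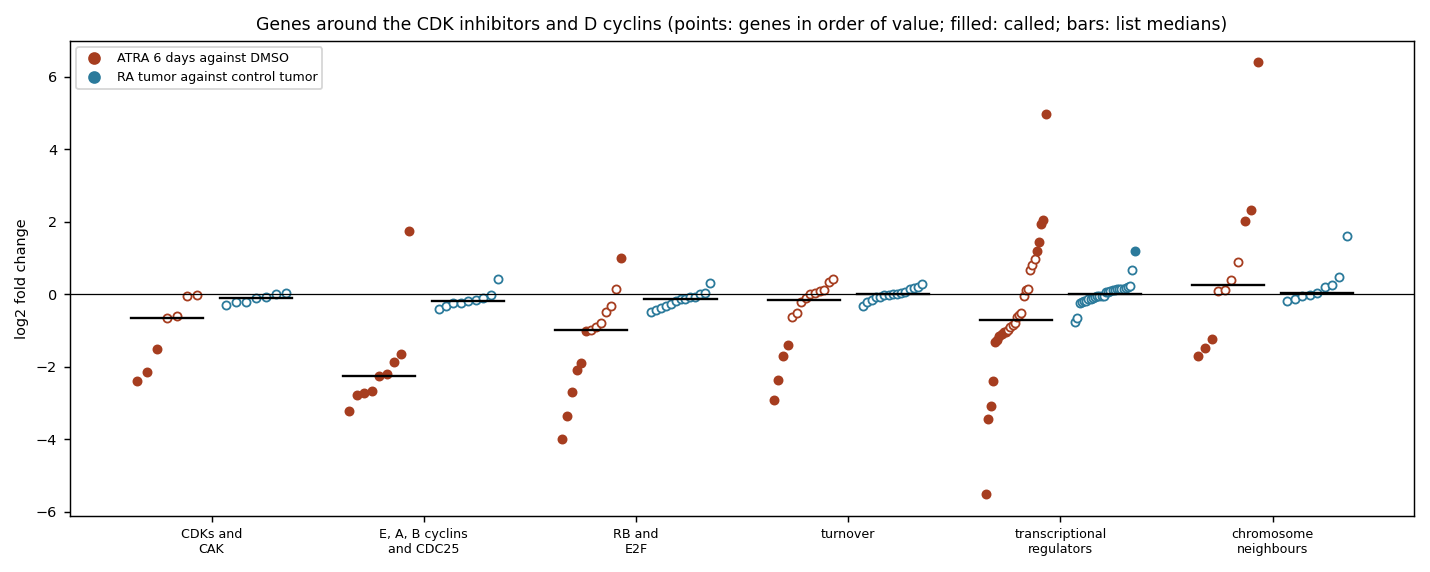
Log2 fold change of every tested gene of 6 lists around the CDK inhibitors and D cyclins, for 6 days of ATRA against DMSO and for RA tumors against control tumors (points are genes, filled where called, and bars are list medians). In the cyclin and CDC25 list 8 of 9 genes are filled below 0 at 6 days, and in tumors RARB is the one filled point.

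The chromosome neighbours of 2 inhibitor loci were also read. CDKN1C lies in an imprinted domain of chromosome 11 where the antisense RNA KCNQ1OT1 silences the paternal copies of nearby genes. KCNQ1OT1 had 401 and 410.3 CPM at 6 days, against 212.8 and 215.5 CPM with DMSO (1.85-fold, FDR 3.06e-20), so it was higher beside CDKN1C, within the 2-fold limit. H19, a maternally expressed noncoding RNA of the adjacent domain, had 62.6 and 68.6 CPM at 6 days, against 0.655 and 0.875 CPM with DMSO (log2 6.40 ± 0.11, FDR 2.01e-32). It was above DMSO from 1 day on, by 2.24 ± 0.18 at 1 day and 3.22 ± 0.16 at 3 days in log2, when CDKN1C was at -0.21 and 1.08. SLC22A18 (2.31 ± 0.14, FDR 3.76e-17) and IGF2 (2.01 ± 0.25, FDR 4.98e-09) also rose and PHLDA2 fell by 1.23 (FDR 0.00195), so the genes of this region went both ways.

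Beside CDKN2A, MTAP, a gene of methionine salvage, had 18.6 and 19.3 CPM at 6 days, against 59.8 and 61.1 CPM with DMSO (-1.71 ± 0.05, FDR 6.05e-27). CDKN2B-AS1, the antisense RNA of the locus, had 0.661 and 0.673 CPM, against 1.72 and 1.94 CPM with DMSO (-1.48 ± 0.28, FDR 1.6e-05). Both neighbours fell at 6 days, as CDKN2A did, while DMRTA1, a further neighbour, had 2.05 and 2.35 CPM at 6 days, against 1.42 and 1.84 CPM with DMSO (0.40 ± 0.21, FDR 0.0871). In control tumors CDKN2B-AS1 was 4.00 to 6.97 CPM, above DMSO (1.63 ± 0.22, FDR 1.98e-06), and MTAP 54.5 to 72.3 CPM, with no difference from it detected (0.13 ± 0.10, FDR 0.249). Of the 10 neighbours tested (of 12), 3 rose (18.8% of all genes) and 3 fell (12.3%) at 6 days, with a median of 0.27. In RA tumors 0 of 9 were called (0.284% of all genes).

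For each member called in culture, the genes most like it were taken by Pearson's r of log2 CPM over the 8 culture libraries, among 12104 or 12105 genes, as a description in which all genes share the same libraries. CDKN1C was closest to EDIL3 (r = 0.999, 5.71-fold up at 6 days), NHLH2 (r = 0.999, 2.95-fold) and PDE2A (r = 0.999, 9.27-fold). CCND3 was closest to RCC2, CEP152 and GRK2 (r of 0.9995 to 0.9996), of which CEP152, a centriole gene, fell 6.48-fold. CDKN2C was closest to PCOLCE2, ASTN2 and KCNK2 (r of 0.996 to 0.998), CDKN2D to VPS13D, TCP11L1 and CLIP4 (0.991 to 0.997), and CDKN2A to NFIC, DPF2 and PHF13 (0.988 to 0.992).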

How the data were processed

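Total RNA was sequenced after removal of ribosomal RNA, with an Illumina stranded kit for cells and the KAPA HyperPrep kit for tumors. The authors deposited expected counts per gene from RSEM 1.3.3, not normalized, after trimming by Trim Galore 0.4.4 and alignment by STAR 2.7.10a (build hg38, per the labels). The annotation release, strand setting and removal of mouse reads are not given in the sources used here. Here, expected counts were rounded and genes with too few counts were removed (filterByExpr, minimum count 10), which left 20237 genes in culture, 21098 in tumors and 25787 over all libraries. Each set was fitted with 1 mean per group in edgeR 4.0.16 (R 4.3.3, TMM, robust quasi-likelihood test, Benjamini-Hochberg adjustment). A call needs FDR under 0.05 and over 2-fold. The tests recovered most of the large known changes in data simulated from the fitted model itself, which is no check of that model. Recovery of smaller changes is not given here. The text names all 10 members, up to 4 called genes per list with the largest 6 day change, defining genes of the pathway (CDK2, CDK4, CDK6, CCNE1, CCNE2, RB1, E2F1, SKP2, MYCN, KCNQ1OT1, CDKN2B-AS1, MTAP and MKI67), and the 3 genes most like each called member (mean of at least 5 CPM). Other genes named are further members of these lists, chosen after their values were seen. A further list and its defining genes are not reported here. The members, lists and tests were chosen with earlier results of these data known. Alternatives were DESeq2 1.42.0, its size factors, no filter, FDR alone, 2 groups only, a replicate block and leaving out each library.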

Additional observations from a re-analysis of the deposited data

Results flagged for a closer look

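For 5 members RA and control tumors did not differ as 6 day ATRA and DMSO cells did, by the test of the difference itself in the fit of all 17 libraries. The tumor difference minus the culture difference was -3.49 for CDKN1C, -1.19 for CDKN1A, -1.07 for CDKN2D, 1.43 for CDKN2A and 1.65 for CCND3, in log2. Between RA and control tumors alone, CDKN1C had an FDR of 0.0205, against 0.343, 0.199, 0.974 and 0.993 for CDKN1A, CDKN2D, CDKN2A and CCND3. Compound, dose, time and kit differ between tumors and culture and cannot be told apart. Dixon's test, run on the RA and the control tumors of each member (20 sets of values), found no tumor far from the rest of its group, where about 1 set in 20 is picked by chance.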

How the results depend on the processing

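No pairing of the libraries by replicate number was detected, which does not exclude one. Deviations of same-numbered libraries correlated at -0.025 to 0.012 in culture and at -0.334 to 0.108 in tumors, and 1 of 4 RA tumors matched its own number best. With the replicate block, 12 genes in place of 60 were called between RA and control tumors, CDKN1C there had log2 0.89 (FDR 0.101) and CDKN2A -0.01. DESeq2 called 308 genes at 1 day against DMSO (554 in edgeR) and 511 at 3 days against 1 day (827). Without the filter, 124 genes were called in RA tumors, and CDKN1B differed by 0.038 between the tumor and culture effects, against -0.07. By FDR alone, calls against DMSO rose to 5339, 9113 and 15197 genes and to 3, 6 and 8 members at 1, 3 and 6 days, to 6980 genes and 4 members at 3 days against 1 day, 13782 and 8 at 6 days against 3 days, and 342 and 1 in RA tumors, and to 18479 genes for control tumors against DMSO and 10447 for the difference of effects. Leaving out 1 library gave 24 to 160 genes called in RA tumors (24 without RA tumor 2, 160 without RA tumor 4) and 0 to 1 members at 3 days against DMSO. It also turned the sign of values near 0: CDKN2A (-0.044 to 0.079) and CCND3 (-0.082 to 0.103) in RA tumors, CDKN1B (-0.008 to 0.049) and CDKN2C (-0.063 to 0.082) at 1 day, and CDKN1B at 3 days against 1 day (-0.009 to 0.048). Of all 738 values of single members under settings other than FDR alone, 716 kept their direction and their side of the limits. The cause of these shifts was not tested. Counts of CDKN2B and CCND2 limit what can be said of them in culture, and tumors hold fewer counts per library than cells.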

Other observations

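The summed endothelial markers in culture came mostly from 1 gene chosen after its values were seen: CLDN5, a tight junction gene, had 144 to 155 CPM at 6 days, against 1.39 to 1.84 CPM with DMSO. Others were also higher at 6 days, but low. PECAM1 had 0.0962 to 0.198 CPM against 0, CDH5 0.224 to 0.297 against 0.0546 to 0.125 CPM, and VWF 0.165 to 0.545 against 0.0312 to 0.0819 CPM. KDR was at 0.033 to 0.0641 CPM and 0.0546 to 0.0625 CPM in the same groups. The entry AC008012.1, which overlaps CCND2, had 0 to 16.07 counts in tumors.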
